A study of Mus musculus with 4 samples.

Results

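The Polycomb genes described here are 9 genes of the Polycomb repressive complexes, Ezh1, Ezh2, Eed and Suz12 of PRC2 and Bmi1, Cbx2, Cbx7, Cbx8 and Ring1 of PRC1. Their chromatin accessibility was read from ATAC-seq of mouse bone mesenchymal stem cells (MSCs). ATAC-seq uses a transposase that cuts open DNA, so that the read density at a site measures how accessible the chromatin is. A peak was taken as a peak of a gene when it overlapped the gene or the 5 kb upstream of its start in the GENCODE vM21 annotation of GRCm38. This gave 27 peaks of the 117282 peaks on the mm10 build, 14 at the PRC2 genes and 13 at the PRC1 genes. The old group held 2 samples of MSCs from mice aged between 18 and 22 months, and the young group held 2 samples from mice aged between 3 and 5 months. All 4 samples were cultured at 2% O2 and none was labelled with a mutation or a drug. The labels do not give the strain or the sex of the mice, nor how many animals went into a sample, and the study's methods describe C57BL/6N males of the young age range, with MSCs sorted as CD45-/Ter119-/CD140a+/Sca-1+ cells from collagenase-treated hind-limb bone.

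Polycomb proteins keep developmental genes silent by marking their histones. PRC2 methylates lysine 27 of histone H3 through the enzyme Ezh2 or its relative Ezh1, which need the partners Eed and Suz12 to work, and Eed also binds the finished mark. PRC1 ubiquitinates histone H2A through a RING-type ligase such as Ring1, helped by Bmi1, and its Cbx proteins carry a chromodomain that reads the PRC2 mark. Ezh2 is known as the form of dividing cells and Ezh1 as the form of resting cells, and Bmi1, Cbx7 and Cbx8 are known repressors of the senescence locus Cdkn2a.

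Every one of the 9 genes had an accessible start region in both old and young MSCs. None of their peaks or summed values passed the test between the ages. Over the whole series 0.0563% of peaks and 0.0116% of genes passed, so this absence of calls is not a result about the Polycomb genes. Taking the most accessible start of each gene, those of Ezh2 and Bmi1 had the highest values per kb and those of Cbx7 and Ezh1 the lowest, and a further, internal start of Bmi1 was lower still. Among the 27 peaks, the largest difference was an intronic Cbx7 peak with a higher value in old MSCs (log2 fold change 0.73 ± 0.28, SE, 2 samples per age). Ezh1 had the largest summed difference (log2 fold change 0.26 ± 0.22, SE), with a high value in old replicate 2 alone. With each chromosome scaled on its own typical peak, Suz12 had the largest (-0.29) and Ezh1 had 0.16.

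The sequences printed here include the promoters of 2 genes with strongly open starts, Ezh2 and Suz12, and those of the weakly open starts of Ezh1 and Cbx7. The middle of the intronic Cbx7 peak is also printed. The sequences were chosen after the values were seen, and a link between sequence and accessibility was not tested. Promoters run from 250 bases before to 50 bases after the RefSeq start and come from RefSeq on GRCm38.p6, where 8 of the 9 genes had an entry and Cbx2 did not. Each is written 5′ to 3′ along the gene's strand, with capitals at matches, on either strand, to E2F (TTTCCCGC, TTTGGCGC, TTTCGCGC or TTTGCCGC), to Sp/KLF (GGGCGG) and to NF-Y (CCAAT) motifs. The windows are chr6:47594981-47595280 (minus strand) for Ezh2, chr11:79992856-79993155 (plus strand) for Suz12, chr11:101226414-101226713 (minus strand) for Ezh1 and chr15:79932597-79932896 (minus strand) for Cbx7.
Ezh2: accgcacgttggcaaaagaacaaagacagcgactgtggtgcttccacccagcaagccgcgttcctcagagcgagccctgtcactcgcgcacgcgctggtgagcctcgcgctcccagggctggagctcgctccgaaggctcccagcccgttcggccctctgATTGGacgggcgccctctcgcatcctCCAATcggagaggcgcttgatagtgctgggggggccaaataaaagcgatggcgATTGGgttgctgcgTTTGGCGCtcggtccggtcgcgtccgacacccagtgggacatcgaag
Suz12: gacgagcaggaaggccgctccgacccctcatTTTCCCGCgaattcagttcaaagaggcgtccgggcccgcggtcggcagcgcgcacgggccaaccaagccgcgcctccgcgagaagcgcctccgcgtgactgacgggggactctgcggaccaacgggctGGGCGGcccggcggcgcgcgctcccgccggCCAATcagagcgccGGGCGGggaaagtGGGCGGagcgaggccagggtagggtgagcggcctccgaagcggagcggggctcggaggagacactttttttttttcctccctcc
Ezh1: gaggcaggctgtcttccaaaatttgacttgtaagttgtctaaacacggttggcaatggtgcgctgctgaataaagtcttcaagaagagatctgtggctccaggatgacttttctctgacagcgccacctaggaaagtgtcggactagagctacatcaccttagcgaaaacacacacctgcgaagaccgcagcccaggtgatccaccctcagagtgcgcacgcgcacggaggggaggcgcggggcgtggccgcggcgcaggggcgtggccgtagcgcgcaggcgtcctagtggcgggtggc
Cbx7: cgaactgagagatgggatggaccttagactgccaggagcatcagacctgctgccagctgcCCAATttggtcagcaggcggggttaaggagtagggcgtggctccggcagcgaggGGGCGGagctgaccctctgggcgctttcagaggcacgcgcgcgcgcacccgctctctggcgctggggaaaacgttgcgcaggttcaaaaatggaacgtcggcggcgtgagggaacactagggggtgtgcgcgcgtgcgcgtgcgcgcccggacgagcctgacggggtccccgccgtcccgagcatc
The E2F motif, bound by cell-cycle transcription factors, was found in 2.26% of the 32851 RefSeq promoters of this length. It began at position 4 in Ezh2, counting the start as 1, and at position -219 in Suz12, and occurred in no other of the 8 promoters. The Bmi1 promoter lacked it, although the main Bmi1 start was more open per kb than that of Suz12 (56.4 against 48.4). NF-Y matches, found in 37.4% of all promoters, numbered 3 in Ezh2, 2 in Cbx8 and 1 each in Eed, Suz12 and Cbx7. Sp/KLF matches, found in 35.7% of all promoters, numbered 6 in Bmi1, with overlapping matches counted separately, 3 each in Suz12 and Ring1 and 1 each in Cbx7 and Cbx8. The Ezh1 window held none of these letters. None of the 8 windows held the NRF1 (GCATGCGC), ETS (CCGGAAG) or YY1 (AAGATGG) motif, which 2.71%, 8.86% and 6.34% of all promoters hold.
The middle of the intronic Cbx7 peak, chr15:79946201-79946500 on the plus strand, is printed because this peak differed most between the ages, and it held no match to any of the 5 motifs searched there.
Cbx7 intronic peak: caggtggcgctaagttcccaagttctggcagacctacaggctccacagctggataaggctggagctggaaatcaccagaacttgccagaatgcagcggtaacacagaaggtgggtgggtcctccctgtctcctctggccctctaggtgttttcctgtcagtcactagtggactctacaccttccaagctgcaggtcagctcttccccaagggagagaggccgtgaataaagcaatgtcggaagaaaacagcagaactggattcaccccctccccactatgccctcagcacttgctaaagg
Over the central 300 bases of all 117282 peaks, these motifs were found in 21.5% for AP-1 (TGANTCA), 26% for RUNX (TGTGGT), 20.9% for TEAD (GGAATG), 2.19% for ETS (CCGGAAG) and 9.73% for Sp/KLF (GGGCGG).

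The authors deposited 1 value per peak and sample, a count per library total scaled to 10000000 that was not divided by peak length. The library totals recovered from the values lay between 28259470 and 32559794 counts, and the peaks of the 9 genes held between 4 and 1383 counts per sample. For comparisons, values were divided by RLE factors, the median ratio of each sample to the mean sample, between 0.813 and 1.15, and are called RLE-scaled values. A set of 9 mesenchymal markers all had a start peak (between 6.42 and 27 per kb), as had 2 of 7 blood and 2 of 5 endothelial markers, while Ptprc, Spi1, Pecam1 and Cdh5 had none. Summed over a list, the marker values per kb were 161 and 195 in the old and 158 and 156 in the young samples for mesenchymal, 42.5 and 43.1 against 52.6 and 43.4 for blood, and 37.6 and 36.8 against 47.2 and 43.3 for endothelial markers. The endothelial sum rests on Tek, at 16.9 and 17.5 in old and 31.3 and 26.9 in young samples, and on Kdr, which lay the other way at 20.7 and 19.3 against 15.9 and 16.4. Old replicate 2 stood apart in its lower mitochondrial share (6.52% of peak values against 13.5% to 15.7%) and on chromosome 11, which carries Ezh1, Suz12, Cbx2 and Cbx8. There its median peak was 0.18 above the young mean on the log2 scale, outside the range of -0.09 to 0.09 over its other autosomes. In a bulk sample, a change in which cells were present and a change in accessibility within cells cannot be told apart.

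The start peaks were compared first, on the scale of RLE-scaled value per kb of peak. A start peak is one that holds the 5′ end of a protein-coding transcript of the gene, and the 9 genes had 10, since Bmi1 had a pair. In order of the mean over the 4 samples, Ezh2 stood at 64.6 ± 3.42 (SD, n = 4), Bmi1 at 56.4 ± 5.37, Suz12 at 48.4 ± 8.87 and Eed at 42.9 ± 3.08. Then followed Ring1 at 34.2 ± 3.5, Cbx8 at 27.1 ± 1.55, Cbx2 at 21.2 ± 1.27, Ezh1 at 15 ± 1.73, Cbx7 at 11 ± 0.783 and the second Bmi1 start peak at 8.0 ± 1.32. The sample ranges of Bmi1 and Suz12 and those of Suz12 and Eed overlapped, so these neighbours were not separated by the spread. Ezh2 was above Bmi1 in each of the 4 samples, although their ranges touched (lowest Ezh2 value 59.7, highest Bmi1 value 60.6). Each step from Eed down to the second Bmi1 peak separated all 4 samples of both peaks. Among the 14698 start peaks of protein-coding genes, Ezh2 was at percentile 91.5 and Bmi1 at 87.0, while Ezh1 was at 19.8, Cbx7 at 10.5 and the second Bmi1 peak at 2.65. The paired enzymes of PRC2 therefore lay far apart in start accessibility, at 64.6 for Ezh2 and 15 for Ezh1, in every sample.

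**Figure D1:**
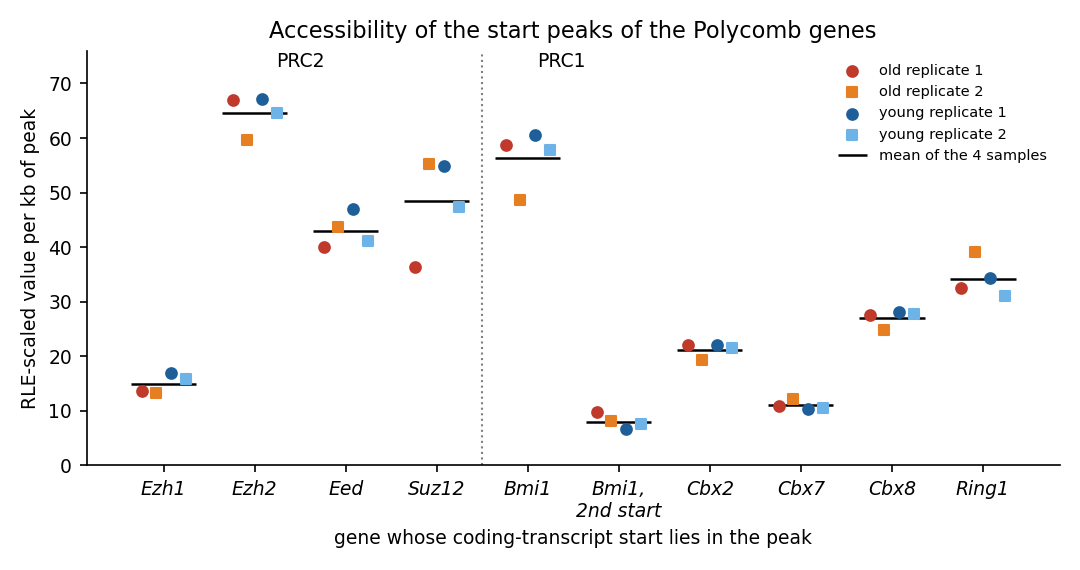
Values of the 10 start peaks per kb of peak (RLE-scaled, vertical axis) for each Polycomb gene (horizontal axis), with 1 point per sample and a line at the mean of the 4 samples. Ezh2 lies near 64.6 and Ezh1 near 15, and old and young points of either gene lie close together compared with the distance between them. The points of Suz12 reach into those of Eed and Bmi1.

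Start peaks also differed in width and base composition. Those of PRC2 genes were 1.10 kb (Ezh1) to 2.80 kb (Eed) wide, near the median of 2.70 kb over all start peaks except for Ezh1. The start peaks of Cbx2, Cbx8 and Ring1 were broad, at 5.80, 8.50 and 10.8 kb, at percentiles 86.1, 93.4 and 95.9. The CpG ratio is the number of CpG dinucleotides over that expected from the C and G content. It was 0.841 in Ezh1, 0.884 in Ezh2, 0.897 in Eed, 0.857 in Suz12 and 0.940 in the main Bmi1 peak, all at or above percentile 96.9 of start peaks. In Cbx2, Cbx7, Cbx8 and Ring1 it lay between 0.515 and 0.563, near the median of 0.508. This ratio covers the whole peak, so it does not describe the start alone. The 300-base promoter windows ordered the genes otherwise. They held 41 CpG in Suz12, 37 in Ring1, 33 in Cbx7, 31 in Ezh2, 24 in Cbx8, 23 each in Ezh1 and Bmi1 and 17 in Eed. A high CpG ratio and an open start did not go together in Ezh1, whose ratio was at percentile 96.9 and whose value per kb was at 19.8. The genes thus differed in peak width as well as in value per kb. The part of width in the order above and in the CpG ratios was not tested.

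Ezh2, the main H3K27 methyltransferase (ENSMUSG00000029687.16, chr6:47530139-47595341, minus strand), had 7 peaks. Its start peak (chr6:47593501-47596200) had RLE-scaled values of 181 and 161 in old replicates 1 and 2 and of 181 and 175 in young replicates 1 and 2. Old replicate 1 lay among the young samples and the groups overlapped, with a log2 fold change of -0.06 ± 0.15 (SE, limma adjusted p = 0.886). Fold changes here are on the scale of log2(value + 1), old minus young, which understates differences at weak peaks, and p-values are adjusted by the Benjamini-Hochberg method over all peaks. The peak with the lowest fold change of all 27 covered the last coding exon and the end of Ezh2 (chr6:47529601-47531500), with values of 15.1 and 7.93 in old and 18.2 and 11.3 in young samples. Replicates of the same age differed there as much as the ages did (log2 fold change -0.36 ± 0.33, SE, limma adjusted p = 0.635), and without old replicate 2 the difference was 0.07. The other 5 Ezh2 peaks were weak, at 2.65 to 18.4, lay in introns and coding exons between 18.6 and 62.6 kb downstream of the start, and had fold changes between -0.27 and 0.26. No peak lay over the annotated internal starts at 47577660 and 47540735. Summed over its 7 peaks, Ezh2 had 238.8 and 209.5 in old and 244.8 and 230.9 in young MSCs (log2 fold change -0.09 ± 0.14, SE).

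Ezh1, the methyltransferase related to Ezh2 (ENSMUSG00000006920.14, chr11:101191115-101226463, minus strand), had 5 peaks, and only 9.18% of its summed value lay in its start peak, against 75.5% for Ezh2. At the start peak (chr11:101225701-101226800) the values were 15.1 and 14.6 in old and 18.6 and 17.5 in young MSCs. Each old sample had a lower value there than each young one (log2 fold change -0.26 ± 0.26, SE, limma adjusted p = 0.665). The other 4 Ezh1 peaks went the other way, and in each of them old replicate 2 had the highest value of the 4 samples. In the upstream peak (chr11:101229401-101232600, centred 4.5 kb before the start) the values were 65.4 and 105 in old and 76 and 66.5 in young MSCs. The intronic peak centred 5.0 kb after the start (chr11:101221001-101221900) had 17.6 and 44.8 in old and 23.6 and 23.1 in young MSCs, so that old replicate 1 was the lowest and old replicate 2 the highest sample. A second intronic peak (chr11:101211901-101212400) was faint, with 4 counts in old replicate 1, 32 in old replicate 2 and 9 and 13 in the young samples. At the 3′ end of the gene (chr11:101188801-101191900), values of 49.1 and 73.2 in old and 50.4 and 37.7 in young MSCs gave a log2 fold change of 0.45 ± 0.23 (SE, limma adjusted p = 0.343). The groups overlapped in all 4 of these peaks.

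The summed Ezh1 value was 148.9 and 247.6 in old and 171.5 and 148.7 in young MSCs. Only old replicate 2 stood out, and the summed log2 fold change of 0.26 ± 0.22 (SE, limma adjusted p = 0.736 over 17308 genes) was not larger than the replicate spread. Without old replicate 1, so that old replicate 2 alone stood for the old group and was assumed to vary like the others, 3 Ezh1 peaks passed the threshold, the 3′ end at 0.73, the intronic peak at 5.0 kb at 0.91 and the upstream peak at 0.56 (limma adjusted p = 0.00272, 0.00313 and 0.00754). The summed value then differed by 0.63 (limma adjusted p = 7.9e-07), while 22.4% of all genes and 8.83% of all peaks were called in that fit. Without old replicate 2 the summed difference was -0.09. Relative to the typical peak of each chromosome, the difference was 0.16 on all 4 samples.

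**Figure D2:**
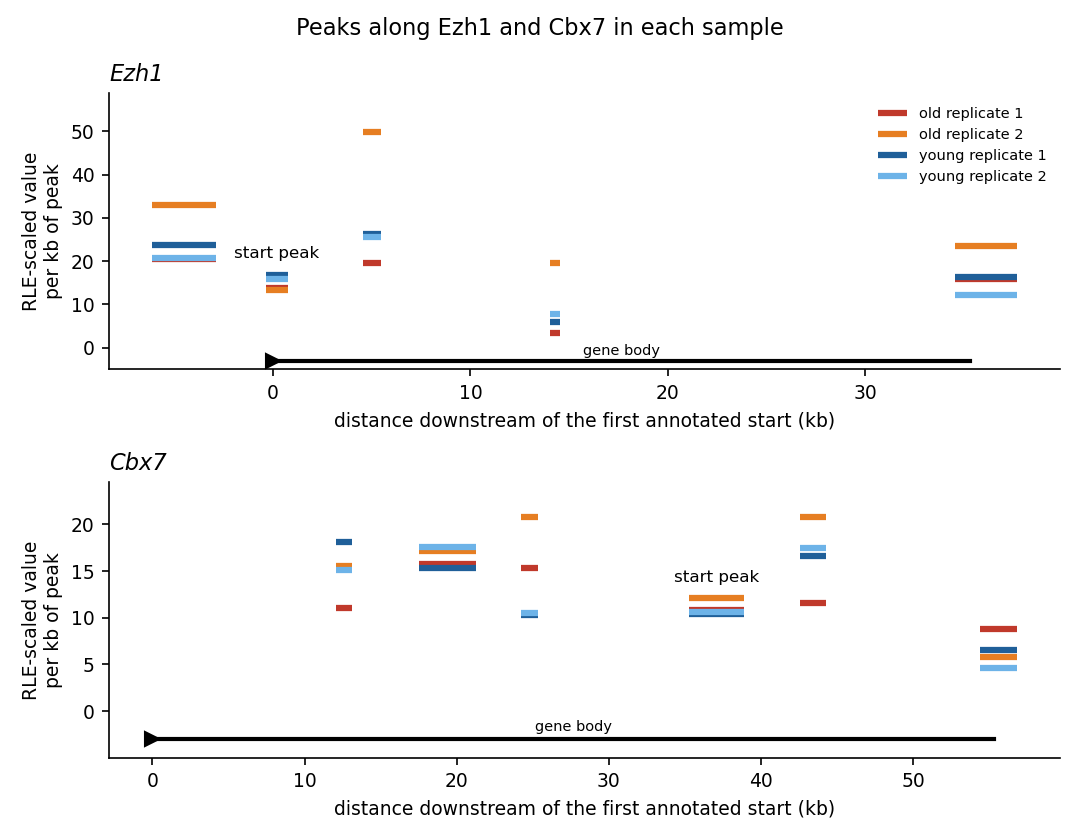
RLE-scaled value per kb of each peak of Ezh1 (top) and Cbx7 (bottom) in each sample, against the distance downstream of the first annotated start in kb; bar length is the peak's width and the black line the gene body. In Ezh1, old replicate 2 is the highest sample in every peak except the start peak; in Cbx7, both old samples lie above both young samples in the start peak and in the peak centred at 24.8 kb.

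Eed, the subunit that binds methylated H3K27 (ENSMUSG00000030619.9, chr7:89954654-89980983, minus strand), had a single peak, at its start (chr7:89979301-89982100), which also holds the start of E230029C05Rik. The values were 112 and 122 in old and 131 and 115 in young MSCs. The groups overlapped (log2 fold change -0.07 ± 0.17, SE, limma adjusted p = 0.871). Suz12, the scaffold subunit of PRC2 (ENSMUSG00000017548.15, chr11:79993106-80034123, plus strand), likewise had only its start peak (chr11:79992101-79994400). Its values were 83.5 and 127 in old and 126 and 109 in young MSCs. Old replicate 1 was the lowest and old replicate 2 the highest sample, so that the log2 fold change of -0.18 ± 0.20 (SE, limma adjusted p = 0.687) became 0.11 without old replicate 1. On the log2 scale, Suz12 was the start peak with the widest spread between the old replicates.

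Bmi1, the PRC1 subunit that supports the ligase and is needed for stem cell self-renewal (ENSMUSG00000026739.13, chr2:18677018-18686629, plus strand), had 3 peaks. The main start peak (chr2:18675601-18678500) had values of 170 and 141 in old and 176 and 168 in young MSCs, with old replicate 2 as the lowest sample and overlapping groups (log2 fold change -0.15 ± 0.16, SE, limma adjusted p = 0.685). A weak peak over the internal starts (chr2:18680401-18681500) had values of 10.8 and 8.84 in old and 7.30 and 8.31 in young MSCs. Both old samples were above both young samples there, by less than the replicate error (log2 fold change 0.29 ± 0.32, SE, limma adjusted p = 0.698). The upstream peak (chr2:18671501-18673600) lies over the start of the neighbouring gene Commd3. It had values of 130 and 127 in old and 138 and 134 in young MSCs, with each old sample below each young one (log2 fold change -0.09 ± 0.16, SE). The main start of Bmi1 and the Commd3 start were similarly open per kb, at 56.4 and 62.9.

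Cbx2 and Cbx8, chromodomain subunits of PRC1, are neighbours on chromosome 11. Cbx2 (ENSMUSG00000025577.7, chr11:119022962-119031270, plus strand) had 1 peak, over its start and the upstream sequence (chr11:119020901-119026700), with values of 127 and 112 in old and 128 and 125 in young MSCs. The young values enclosed that of old replicate 1 (log2 fold change -0.08 ± 0.16, SE, limma adjusted p = 0.854). Cbx8 (ENSMUSG00000025578.9, chr11:119036305-119040969, minus strand) had a start peak of 8.50 kb (chr11:119039801-119048300) with values of 235 and 210 in old and 240 and 235 in young MSCs. Each old sample was below each young one, old replicate 1 by a margin smaller than the rounding shown (log2 fold change -0.09 ± 0.14, SE, limma adjusted p = 0.788). The peak within the last exon of Cbx8 (chr11:119036701-119038600) had 36.1 and 46.7 in old and 36.8 and 36.2 in young MSCs, so that again only old replicate 2 stood out. Summed, Cbx8 had 271.1 and 257.1 in old and 276.3 and 271.3 in young MSCs, the only one of the 9 genes whose groups did not overlap (log2 fold change -0.05 ± 0.13, SE, limma adjusted p = 0.923).

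Cbx7, a chromodomain subunit of PRC1 (ENSMUSG00000053411.16, chr15:79915807-79971119, minus strand), had 6 peaks and a start that is not at the annotated end of the gene. The longest transcripts begin at 79971119, where no peak was found within 9482 bp. The RefSeq start, at 79932646, and 5 GENCODE coding starts lay in the peak chr15:79932201-79935800. There the values were 38.7 and 43.6 in old and 37.5 and 38.0 in young MSCs. Both old samples were above both young samples by less than the replicate error (log2 fold change 0.12 ± 0.21, SE, limma adjusted p = 0.828). This start peak held 22.4% of the summed value of Cbx7, and most of the rest lay in introns of the long transcripts.

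The intronic peak chr15:79945801-79946900, whose middle is printed above, lies 13.7 kb upstream of the RefSeq start of Cbx7. Its values were 16.8 and 22.9 in old and 11.3 and 11.6 in young MSCs, from 39, 75, 34 and 39 counts. Both old samples were higher than both young samples, with means of 19.8 ± 4.31 (SD, n = 2) and 11.4 ± 0.209. This was the only peak of the 27 with an unadjusted limma p under 0.05 (log2 fold change 0.73 ± 0.28, SE), and it did not pass after adjustment over all peaks (limma adjusted p = 0.199). Peaks with an unadjusted p under 0.05 made up 16.4% of all peaks, a larger share than 1 of 27. With any 1 sample left out, the log2 fold change lay between 0.53 and 0.94 and did not pass. The neighbouring Cbx7 peaks did not share this difference. The peak centred 25.9 kb upstream of the RefSeq start had 12 and 17.1 in old and 19.9 and 16.6 in young MSCs (log2 fold change -0.32 ± 0.28, SE). The strong peak centred 19.1 kb upstream of that start had 58.5 and 63.4 against 56.7 and 65.0 (log2 fold change 0.00 ± 0.19, SE). Summed, Cbx7 had 167.0 and 196.4 in old and 169.2 and 171.8 in young MSCs (log2 fold change 0.09 ± 0.15, SE).

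Ring1, a RING ligase of PRC1 (ENSMUSG00000024325.8, chr17:34020792-34024680, minus strand), had a single peak of 10.8 kb (chr17:34023801-34034600). This peak also covers the starts of Rxrb, Slc39a7 and H2-Ke6, so its value does not belong to Ring1 alone. The values were 351 and 422 in old and 371 and 335 in young MSCs, the highest of the 27 peaks before division by width. Old replicate 2 was the highest sample and the groups overlapped (log2 fold change 0.13 ± 0.13, SE, limma adjusted p = 0.679).

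Over all 27 peaks, 0 passed an adjusted p under 0.01, against 0.0563% of all 117282 peaks (66 peaks). A share that low gives no call among so few peaks, and the 0 is not a result about the Polycomb genes. By limma-voom on recovered counts, 0 passed as well. Both old samples were above both young samples in 3 peaks, against 23.2% of all peaks, and below in 4, against 24.2% of all peaks. Values were lower in old MSCs in 14 peaks and higher in 13, a share of 51.9% lower against 49.9% of all peaks, and the median log2 fold change was -0.06 against 0.00. By complex, 8 of 14 PRC2 peaks and 6 of 13 PRC1 peaks were lower. Start peaks were lower in 7 of 10, with a median of -0.08, against 55.6% lower and a median of -0.03 over all start peaks. The other 17 peaks were lower in 7, with a median of 0.02, against 49.1% lower and a median of 0.01 over all other peaks.

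**Figure D3:**
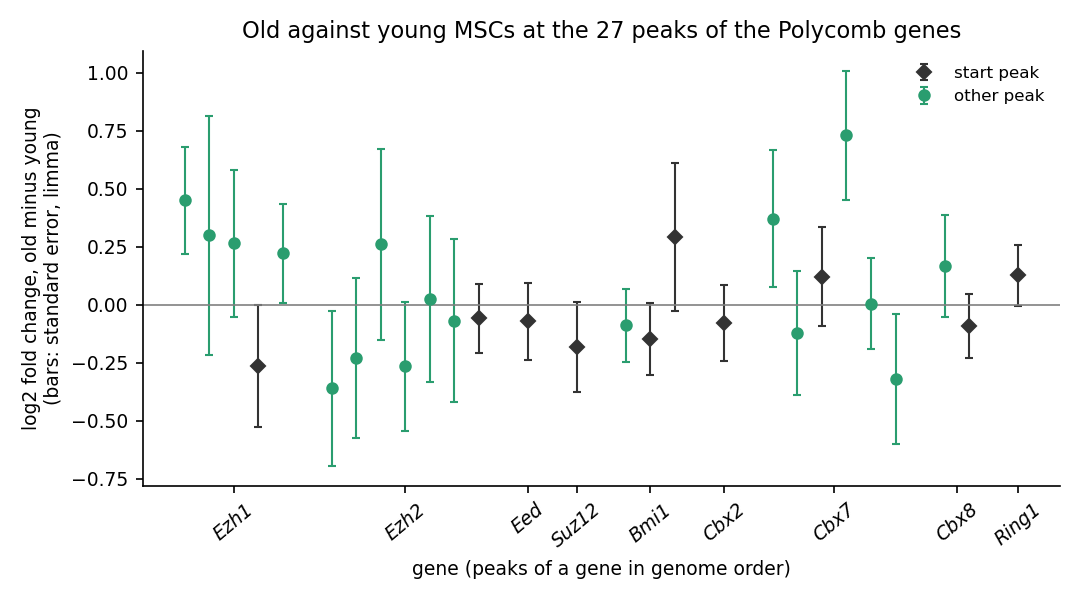
Log2 fold change, old minus young MSCs (vertical axis), of each of the 27 peaks grouped by gene (horizontal axis), with diamonds for start peaks, circles for other peaks and bars for the standard error. Start peaks lie close to 0 with 7 of 10 below it, and the Cbx7 peak at 0.73 stands highest.

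The scaling sets the zero of these differences. On the values as deposited, the median over all peaks was -0.27, and 21 of the 27 peaks were lower in old MSCs (77.8%, against 74.6% of all peaks), with a median of -0.33 and 0 calls (lowest limma adjusted p = 0.284). Of the start peaks, 9 of 10 were then lower (median -0.36), against 88.7% of all start peaks (median -0.32). All 9 summed values were lower, from -0.02 in Ezh1 to -0.47 in Suz12, as were 89.6% of all genes, so that the higher values of Ezh1, Cbx7 and Ring1 in old MSCs hold only relative to the typical peak. The share of a library's total that fell in peaks was 43.8% and 50.3% in old MSCs against 57.5% and 62.9% in young MSCs, and the part of this difference in the shift was not tested.

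Summed per gene, 0 of the 9 genes passed an adjusted p under 0.01, against 0.0116% of 17308 protein-coding genes with a peak (2 genes). No gene of the 9 had an unadjusted p under 0.05, against 8.33% of all genes. The groups did not overlap in 1 gene, Cbx8 with lower old values, against 25.2% of all genes in that direction, and in 0 with higher old values, against 16.4% of all genes. The 6 genes with a lower summed value were Ezh2, Eed, Suz12, Bmi1, Cbx2 and Cbx8, and the 3 with a higher one were Ezh1, Cbx7 and Ring1. The log2 fold changes ran from -0.18 in Suz12 to 0.26 in Ezh1. With each chromosome scaled on its own typical peak, they ran from -0.29 in Suz12 to 0.16 in Ezh1.

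The spread between replicates was wider in old than in young MSCs. At the 10 start peaks, the median absolute log2 difference was 0.17 between the old and 0.07 between the young replicates, beside 0.24 and 0.12 over all start peaks. At the other 17 peaks it was 0.56 and 0.25, beside 0.32 and 0.23 over all other peaks. The median absolute difference between the ages was 0.12 at the start peaks and 0.26 at the others, beside 0.15 over all start peaks and 0.29 over all other peaks. In each of these sets it was smaller than the difference between the old replicates. The age difference is between means of 2 samples and the replicate difference between single samples, so their sizes are not on equal terms. The smallest p that exact permutation of 2 against 2 samples allows is 0.33.

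The median departure of old replicate 2 from young MSCs was upward at the peaks on chromosome 11 and small elsewhere. The 9 peaks of Ezh1, Suz12, Cbx2 and Cbx8 had a median log2 difference from the young mean of 0.35 in old replicate 2, where 6 of 9 were higher, and of -0.12 in old replicate 1, where 2 of 9 were higher. The 18 peaks on other chromosomes had medians of 0.03 in old replicate 2, where 9 were higher, and of -0.01 in old replicate 1, where 8 were higher. Old replicate 2 was the highest of the 4 samples in 6 of the 9 peaks on chromosome 11 (66.7%, against 44.0% of all 7156 peaks there). Elsewhere it was the highest in 5 of the 18 (27.8%, against 31.1% of all peaks on any chromosome). Most of the 6 peaks on chromosome 11 belong to Ezh1 alone, so they do not count as separate genes. Within chromosome 11 the start peaks and the other peaks parted: old replicate 2 was not the highest sample at the starts of Ezh1, Cbx2 and Cbx8, and it was at the Suz12 start, the 4 other Ezh1 peaks and the other Cbx8 peak. When each chromosome was centred on its own typical peak, 0 peaks and 0 genes of the 9 passed the threshold. The summed log2 fold change then moved from 0.26 to 0.16 in Ezh1 and from -0.18 to -0.29 in Suz12. It moved from -0.08 to -0.18 in Cbx2 and from -0.05 to -0.16 in Cbx8. The start-peak median moved from -0.08 to -0.13. The part of chromosome 11 in these differences was not tested further.

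**Figure D4:**
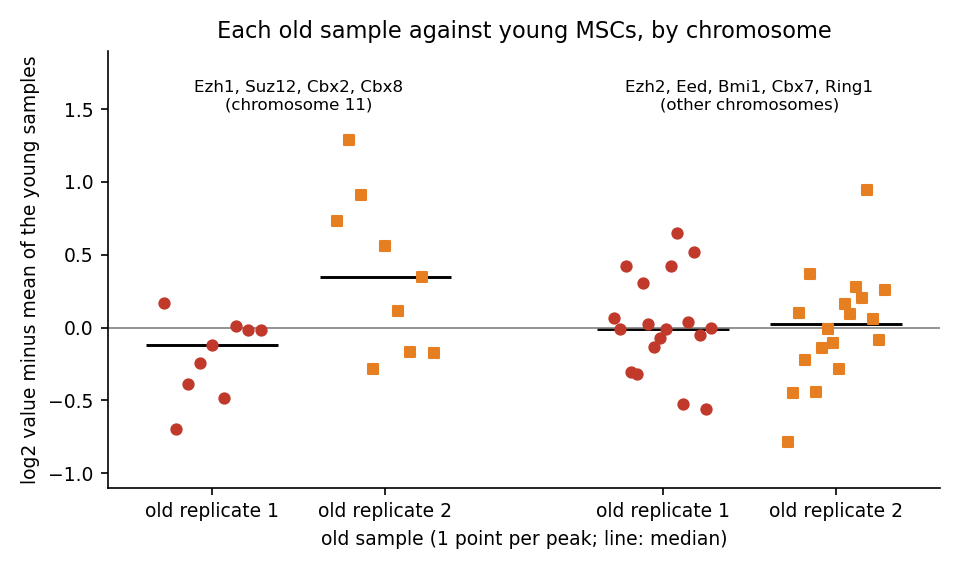
Log2 value of each peak in an old sample minus the mean of the young samples (vertical axis), for old replicates 1 and 2, with the 9 peaks of genes on chromosome 11 at left, the 18 peaks of the other genes at right and lines at the medians. The median of old replicate 2 is 0.35 at left and 0.03 at right.

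The other genes of the pathway were read in the same way. Of 32 further PRC2 partners, PRC1 subunits and mark-removing enzymes, 31 had a peak. None was assigned under the name Ezhip, an inhibitor of Ezh2, and whether the annotation holds that name was not checked. None of the 31 summed values passed the threshold (0 called, against 0.0116% of all genes), with 18 lower and 13 higher in old MSCs and a median log2 fold change of -0.02, against -0.01 over all genes. Of their 125 peaks 0 passed, against 0.0563% of all peaks, and 10 had an unadjusted p under 0.05, against 16.4% of all peaks (lowest limma adjusted p = 0.111), so neither count is a result about these genes. Counted by peak, 53 were lower and 72 higher (42.4% lower, against 49.9% of all peaks). Their median log2 fold change was 0.07, against 0.00 over all peaks. The 32 peaks of PRC2 partners were lower in 11 and higher in 21, with a median of 0.19, but 13 of them belong to Jarid2. Summed per gene, the PRC2 partners were lower in 5 and higher in 4, with a median of -0.07. The largest positive summed difference was that of Jarid2, which helps recruit PRC2, with 410 and 626 in old and 446 and 403 in young MSCs (log2 fold change 0.26 ± 0.18, SE, limma adjusted p = 0.693). As for Ezh1, only old replicate 2 stood out. The largest negative one was that of the X-linked Scml2, a PRC1-associated protein, with 14.6 and 26.2 in old and 22.9 and 28.8 in young MSCs (log2 fold change -0.37 ± 0.30, SE, limma adjusted p = 0.729). With each chromosome scaled on its own typical peak, Scml2 moved to -0.21. The X-linked Kdm6a, Rbbp7 and Bcor moved from -0.16, -0.08 and 0.11 to 0.01, 0.09 and 0.28. Among the 31 genes, the largest fall was then that of Phc3 (-0.23) and the largest rise that of Bcor, with Jarid2 at 0.27. At Cdkn2a, a textbook Polycomb target that encodes the senescence proteins p16 and p19, the summed value over 5 peaks was 308 and 260 in old and 300 and 291 in young MSCs, and the groups overlapped (log2 fold change -0.06 ± 0.14, SE, limma adjusted p = 0.915).

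**Figure D5:**
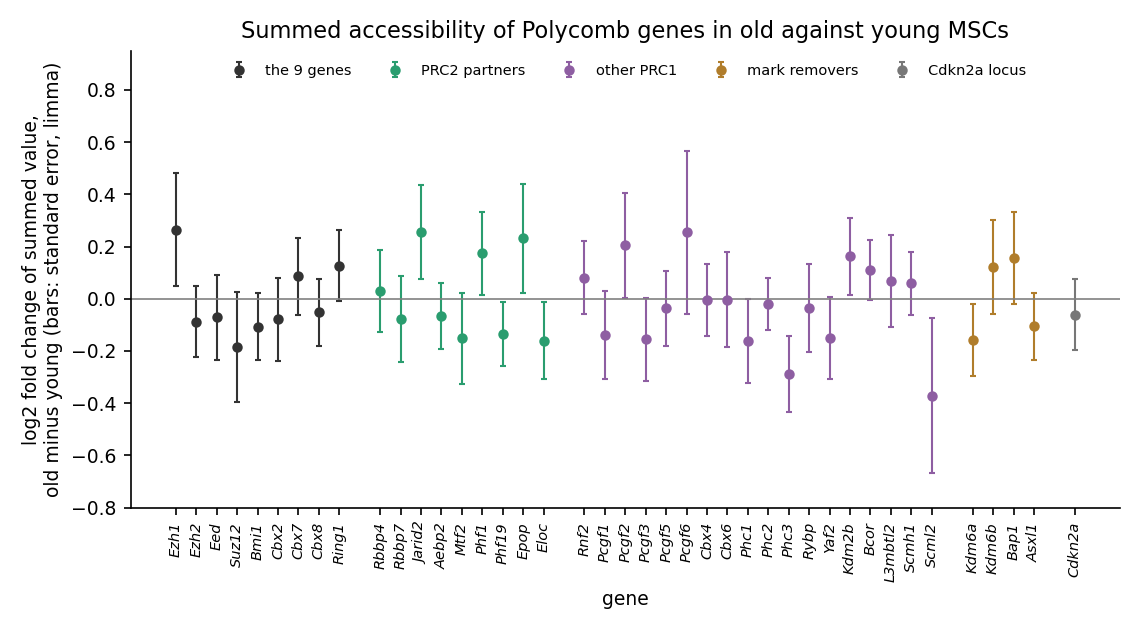
Log2 fold change of the summed value, old minus young MSCs (vertical axis), for the 9 Polycomb genes, 31 other genes of the pathway and Cdkn2a (horizontal axis), with bars for the standard error. The values lie between -0.37 (Scml2) and 0.26 (Ezh1 and Jarid2), with 0 past the threshold.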

How the data were processed

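ATAC-seq values of 2 old and 2 young samples of mouse bone MSCs were analysed. Per the labels, reads were mapped to mm10 with Bowtie2 and handled with Picard; the study's methods name chromstaR for the peaks of its other ATAC-seq samples and do not describe the old and young samples separately. The deposited value, which the authors named RPKM, was treated as a score per peak, because it was a count over the library total and not divided by length: 100% of values were whole multiples of a step per sample, within 0.05 of a step. Values were divided by RLE factors, and log2(value + 1) was fitted across peaks in R 4.3.3 by limma 3.58.1, two-sided, using moderated variances (eBayes, trend and robust), with Benjamini-Hochberg adjustment over all 117282 peaks or 17308 genes and a threshold of 0.01. The limma step was run on simulated counts that had the same spread in both ages. The old replicates differed more than the young ones, so that run does not show how the test behaves here. A gene's summed value covers all its peaks. All 117282 peaks lay within GRCm38 chromosomes. Summaries used Python 3.11.15, numpy 2.4.6 and pandas 2.3.3, and figures matplotlib 3.10.9. Nothing says whether the samples of an age came from separate animals, so p-values measure only the spread between these samples. Values per kb compare genes and have no counting interval. The 9 genes, the pathway list and the marker lists were chosen with earlier results of these data known. By a fixed rule, the text names every gene of the 9 with its summed value and start peak. The rule adds further peaks with an unadjusted p under 0.05 and the largest difference in each direction. It also adds peaks that lie the same way in all 4 old-young pairs with a log2 fold change of at least 0.5 in either direction. For the pathway list it names genes past the threshold, and otherwise the largest summed difference in each direction. The remaining peaks of Ezh1, Bmi1, Cbx7 and Cbx8 and the sequences printed were chosen after their values were seen.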

Additional observations from a re-analysis of the deposited data

How the results depend on the processing

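Relative to the typical peak, 0 Polycomb peaks and 0 Polycomb genes passed the threshold under quantile normalization, equal total signal, factors within each chromosome, pseudocounts of 0.1 and 5, plain variance moderation, a filter on weak values and a threshold of 0.05, as did 0 peaks with the gene body alone, without peaks over another gene's start, without chromosome 11 and under limma-voom, which was added after the data were seen. The planned edgeR test was not run, because the deposited values are not raw counts. On the values as deposited the median over the 27 peaks was -0.33, the share lower 77.8% and the start-peak median -0.36, and the summed values of Ezh1, Cbx7 and Ring1 and the Cbx7 start peak turned to -0.023, -0.20, -0.16 and -0.16. Leaving out a sample gave 0 to 3 called peaks, 0 to 1 called genes, a median of -0.088 to 0.0899, a share lower of 44.4% to 59.3% and a start-peak median of -0.106 to 0.00128; the calls, all in Ezh1, came without old replicate 1. In these fits the summed value of Ezh1 ran from -0.0909 to 0.627, of Ezh2 from -0.185 to 0.016, of Eed from -0.17 to 0.0183, of Suz12 from -0.475 to 0.114, of Cbx2 from -0.172 to 0.0212 and of Cbx7 from -0.0206 to 0.2, the Ezh2 start peak from -0.142 to 0.0331 and its 3′ peak from -0.791 to 0.0722. The sign turned without old replicate 2 in Ezh1, Ezh2, both these Ezh2 peaks, Cbx2 and Cbx7, without old replicate 1 in Suz12 and without young replicate 1 in Eed, and the cause was not tested. The labels do not say whether same-numbered samples were handled together. The deviations of same-numbered samples had a correlation of -0.0993 over 117282 peaks, which cannot decide whether they were paired. With a replicate block 0 Polycomb peaks and 0 genes passed, with a median of -0.058, while 1269 of all peaks were called in place of 66. Over all peaks, 1385 were called as deposited, 110 within chromosomes, 24 and 92 with pseudocounts of 0.1 and 5, 15 after the filter, 0 with plain moderation, and 10356, 1678, 8 and 0 without old replicates 1 and 2 and young replicates 1 and 2. Over all genes, 2 were called, 58 with the replicate block, 9 as deposited, 3869, 287, 6 and 2 without these samples in turn, and 0 with quantile normalization, plain moderation or the filter. Peaks with as few as 4 counts in a sample can show only large differences.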
